A study of Mus musculus with 18 samples.

Results

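The remaining change after control-microbiota transplant is the difference in liver gene expression between Con-FMT mice and Con mice. Con mice were males of ICR, an outbred stock, on a regular diet that were given saline. Con-FMT mice were ICR males that received 1 injection of streptozotocin, a toxin that destroys the insulin-producing beta cells of the pancreas, followed by oral inoculation, daily for 2 weeks, with small-intestinal microbiota. This microbiota was pooled from donor mice that had been dosed with water. STZ mice received streptozotocin, and A10-FMT mice received streptozotocin and microbiota from donors dosed with alginate oligosaccharide. Livers were taken at 10 weeks of age, with 3 libraries for each of these 4 groups, and the labels do not state that the 3 libraries came from separate mice, so p-values measure the spread between libraries, which may be technical. Con-FMT differed from Con in both streptozotocin and transplant, whose parts cannot be told apart in this comparison.

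Expression was given as RPKM, which are reads divided by transcript length and by library size. The comparison took every gene that reached 1 RPKM in 3 or more of the 6 Con and Con-FMT libraries, 10224 of the 19057 genes in the table. Of these, 9516 were at 1 RPKM or more in all 6 libraries, 80 passed only through the Con-FMT mice and 39 only through the Con mice. The third-highest of the 6 values lay from 1 to 1.1 RPKM in 156 genes just inside the limit, such as Casp1, and from 0.9 to under 1 RPKM in 176 genes just outside it, such as Arhgap39.

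The liver is a main target of insulin, which represses glucose production and the oxidation of fat and raises the synthesis of fat. When insulin is low, genes for gluconeogenesis, amino acid breakdown, urea synthesis and ketone body production are known to rise. The male mouse liver also carries a growth hormone dependent programme, which includes the major urinary protein (Mup) genes, and a daily clock that many metabolic genes follow.

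The libraries were compared first. In 5853 genes at 5 RPKM or more in each Con library, the value of Con mouse 3 lay between those of Con mouse 1 and Con mouse 2 in 62.1% of genes, and in 87 of the 88 genes in which mice 1 and 2 differed by at least 2-fold. Its values came closest to a mixture of 0.48 parts mouse 1 and the rest mouse 2, from which they deviated by a median of 4.4%, while mice 1 and 2 differed from each other by a median of 14%. For the hemoglobin gene Hbb-bs, the 3 Con libraries held 0.85, 220.2 and 91.8 RPKM. The corresponding share of genes between the other mice was 20.6, 30.7 and 49.3% for Con-FMT mice 1, 2 and 3. Among genes in which the other Con-FMT mice differed by at least 2-fold, it was 35 of 71, 35 of 79 and 141 of 168 (49.3, 44.3 and 83.9%). AOS mouse 3, from a group not used here, showed the same feature, with 76 of 77 such genes between the other mice. Whether these libraries hold RNA of the other mice was not tested, and the labels state no pooling. Counts are therefore given with all 6 libraries and without Con mouse 3, which leaves 2 Con libraries whose spread is assumed to be like that of the other groups.

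The libraries also differed in how much of the signal went to the Mup genes, which encode abundant urinary pheromone carriers. The 21 Mup genes held 23.7 to 35.8% of the summed RPKM in Con, 2.77, 16.4 and 14.3% in Con-FMT mice 1, 2 and 3, 0.0327, 0.0274 and 19.2% in STZ mice 1, 2 and 3 and 5.65 to 12.3% in A10-FMT. STZ mouse 3 stood apart from the other STZ mice in this measure. Without the Mup genes, RPKM summed to 517668 to 572244 in Con and 592963 to 654773 in Con-FMT. Read numbers are not part of RPKM, but the steps between the lowest values put 1 RPKM in a transcript of 1 kb at about 10.1 reads (median of 17 genes, interquartile range 8.2 to 11.3). Relative depth ran from 0.944 to 1.062 over the 6 libraries.

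**Figure D1:**
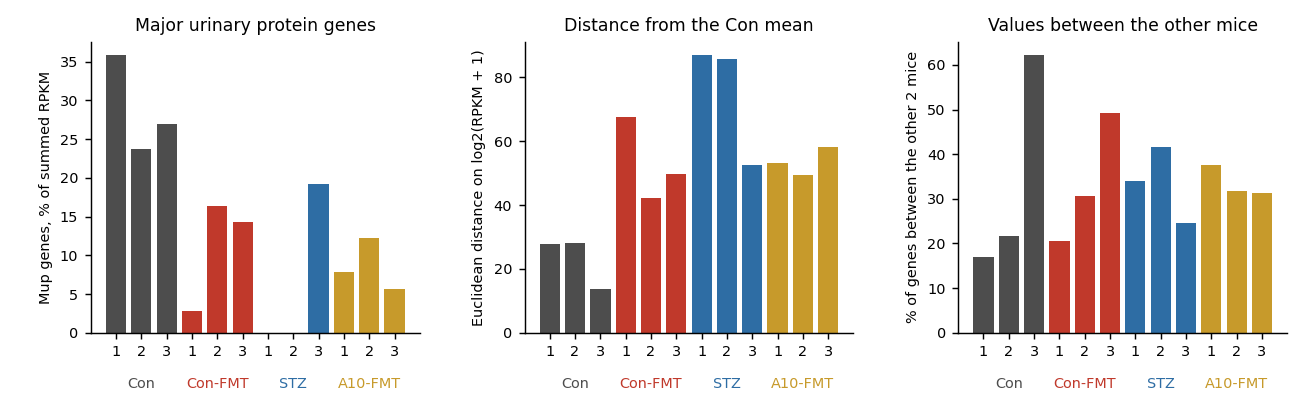
Bars give, for each mouse (1 to 3) of Con, Con-FMT, STZ and A10-FMT, the Mup genes as a percentage of the summed RPKM (left), the Euclidean distance from the Con mean on log2(RPKM + 1) over 10224 genes (middle; a Con mouse is compared with the mean of the other Con mice) and the percentage of genes whose value lies between those of the other mice of the group (right). Con mouse 3 reaches 62.1% in the right panel, Con-FMT mouse 1 is the Con-FMT mouse farthest from Con with 67.6, and STZ mouse 3 is the STZ mouse nearest to Con with 52.5.

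With all libraries, 2102 of 10224 genes (20.6%) passed an adjusted p under 0.05 in Con-FMT against Con. Of these, 1897 (18.6% of the genes tested) were higher and 205 (2.01%) were lower in Con-FMT. Without Con mouse 3, 751 genes (7.35%) passed, 669 higher (6.54%) and 82 lower (0.802%). The median of all genes was 0.19 higher in Con-FMT on the log2 scale. When each library was instead scaled to the median ratio over genes, this shift was removed (median -0.004) and 895 genes (8.75%) passed, 497 higher (4.86%) and 398 lower (3.89%), so that higher genes made up 55.5% of the calls instead of 90.2%. Scaling to the sum without Mup genes, chosen after seeing the data, left a median of 0.05 and 1085 calls, 797 higher and 288 lower. Small increases near the median shift therefore depended on the scaling, and 698 genes (6.83%) passed in the same direction as deposited and with median-ratio scaling.

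Single libraries also moved the count. It was 686 without Con mouse 1, 639 without Con-FMT mouse 1 and 1043 without Con-FMT mouse 3, and 540 genes (5.28%) passed in the same direction with all libraries and with each of the 6 left out in turn, 463 of them higher (4.53%) and 77 lower (0.753%). At a log2 change of at least 1 in either direction, 273 genes (2.67%) passed with all libraries, 199 higher (1.95%) and 74 lower (0.724%). At the study's limits, an adjusted p of 0.001 or less and a log2 change of at least 1, there were 22 genes (0.215%), 16 higher (0.156%) and 6 lower (0.0587%). The paper set these limits for another test, DEGseq. They were applied here to limma and to changes on the log2(RPKM + 1) scale, so the count is not the study's own.

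**Figure D2:**
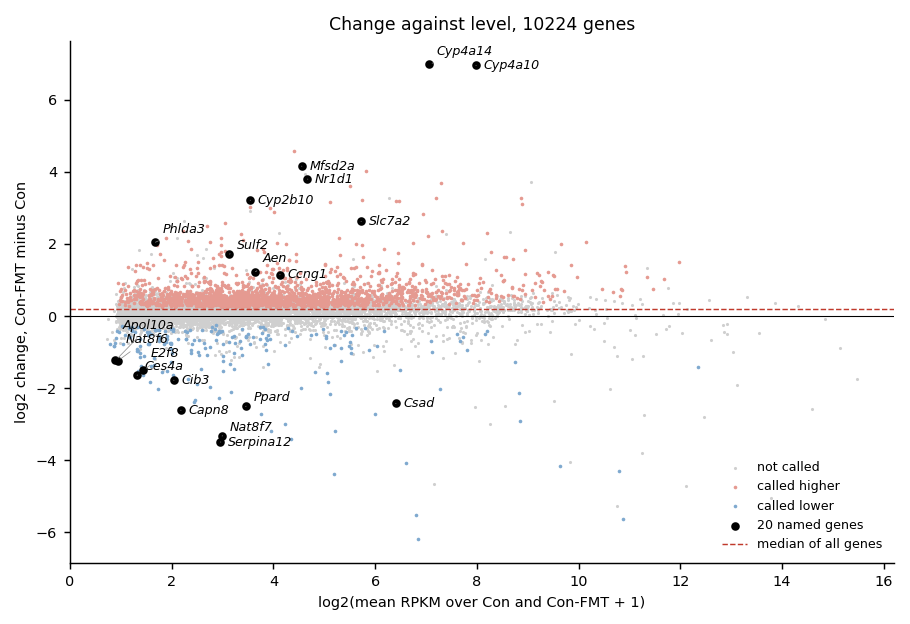
Each point is a gene, with log2(mean RPKM over Con and Con-FMT + 1) on the horizontal axis and the log2 change, Con-FMT minus Con, on the vertical axis. Called genes are red where higher and blue where lower, the 20 genes named by rule are black, and the dashed line is the median of all genes at 0.19. The black points reach from -3.50 for Serpina12 to 6.98 for Cyp4a14.

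The 10 rising and the 10 falling genes described next had the smallest p among genes that passed, changed by at least 1 on the log2 scale and did not overlap between the groups. No overlap was seen in 4772 of all genes (46.7%), with Con-FMT above Con in 4232 (41.4%) and below in 540 (5.28%). All of these 20 genes also passed with each library left out. Among them, Cyp4a14 and Phlda3 reached the level limit only through the Con-FMT mice, and Serpina12, Nat8f7, Nat8f6, Ces4a, Capn8, E2f8 and Apol10a only through the Con mice. Those 9 genes had to differ to be included. All 20 were chosen by their p, change and lack of overlap in these same libraries. Their p, rank and passes with a library left out are therefore a description and not further support.

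Slc7a2, a transporter of arginine and other cationic amino acids, led the rising genes. Its levels were 11.7, 14.7 and 14.1 RPKM in Con mice 1, 2 and 3 and 110.4, 66.9 and 92.6 RPKM in Con-FMT mice 1, 2 and 3. All Con-FMT mice were above all Con mice, a log2 change of 2.63 ± 0.18 (SE) with an adjusted p of 4.23e-05, and of 0.000601 without Con mouse 3. The gene lies on chromosome 8 (GRCm38, 40862396 to 40922308, plus strand). Mfsd2a, a membrane transporter of lysophosphatidylcholine that carries docosahexaenoic acid, was at 0.89, 2.36 and 1.28 RPKM in Con and 43, 33.2 and 54 RPKM in Con-FMT. Its mean was 28.7 times that of Con, and the log2 change of 4.16 ± 0.29 had an adjusted p of 4.23e-05 (0.000601 without Con mouse 3).

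The fatty acid omega-hydroxylase genes Cyp4a10 and Cyp4a14 gave the largest increases among these 20 genes. Cyp4a10 went from 1.29, 2.76 and 2.77 RPKM in Con to 890.3, 151 and 461 RPKM in Con-FMT, a log2 change of 6.96 ± 0.53 (adjusted p = 5.98e-05, and 0.000601 without Con mouse 3). Cyp4a14 was at 0.2, 0.57 and 0.55 RPKM in Con and 473, 44.8 and 271 RPKM in Con-FMT, with a log2 change of 6.98 ± 0.67 (adjusted p = 0.000263). Con-FMT mouse 1 was the highest and mouse 2 the lowest for both genes. The Cyp4a genes are close copies of each other, so reads may have been shared among them in the counting. Sulf2, a sulfatase that trims heparan sulfate, rose from 2.63, 3.72 and 2.87 to 15.1, 12.4 and 10.1 RPKM, a log2 change of 1.72 ± 0.14 (adjusted p = 6.92e-05).

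Aen, Phlda3 and Ccng1 are known targets of the tumour suppressor p53 and were again separate between the groups. Aen, an exonuclease gene, was at 7.25, 5.9 and 6.3 RPKM in Con and 18.1, 15.4 and 16.2 RPKM in Con-FMT (log2 change 1.23 ± 0.10, adjusted p = 0.000124). Phlda3, an inhibitor of Akt signalling, was at 0.23, 0.19 and 0.28 RPKM in Con and 5.35, 3.61 and 3.54 RPKM in Con-FMT (log2 change 2.05 ± 0.19, adjusted p = 0.000179). Ccng1, which encodes cyclin G1, was at 9.25, 10.1 and 10.1 RPKM in Con and 25.4, 21.1 and 22.6 RPKM in Con-FMT (log2 change 1.15 ± 0.11, adjusted p = 0.000266). The last rising genes were Nr1d1, a repressor of the clock (log2 change 3.80 ± 0.34, adjusted p = 0.000179), and Cyp2b10, a marker of the drug-sensing receptor CAR. Cyp2b10 rose from 0.62, 1.42 and 1.55 to 28.8, 12.3 and 19.2 RPKM, a log2 change of 3.21 ± 0.30 (adjusted p = 0.000179).

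Serpina12, which encodes the adipokine vaspin, led the falling genes. It was at 14.3, 11.8 and 13.6 RPKM in Con and 0.07, 0.6 and 0.16 RPKM in Con-FMT, close to absent in Con-FMT mice 1 and 3, a log2 change of -3.50 ± 0.23 (adjusted p = 4.23e-05, and 0.000601 without Con mouse 3). Ppard, which encodes the fatty acid sensing nuclear receptor PPAR delta, fell from 16, 18.1 and 18.7 to 2.81, 2.03 and 2 RPKM (log2 change -2.51 ± 0.20, adjusted p = 6.92e-05). The N-acetyltransferase family genes Nat8f7 and Nat8f6 are close copies of each other on chromosome 6 and may share reads. Nat8f7 fell from 8.84, 18.5 and 13 to 0.25, 0.78 and 0.19 RPKM (log2 change -3.33 ± 0.24, adjusted p = 4.48e-05), and the lower Nat8f6 changed by -1.25 ± 0.14 (adjusted p = 0.000791).

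Csad, the enzyme that makes the taurine precursor hypotaurine, was the most abundant of the falling genes. Its levels were 129, 148 and 140.2 RPKM in Con and 12.2, 29.3 and 43.1 RPKM in Con-FMT, a log2 change of -2.43 ± 0.32 (adjusted p = 0.00168, and 0.0106 without Con mouse 3). The 5 other falling genes were below 10 RPKM in each Con mouse, namely the carboxylesterase Ces4a (-1.64 ± 0.15), the calpain protease Capn8 (-2.62 ± 0.24), the transcription factor E2f8 (-1.51 ± 0.18), the calcium-binding protein gene Cib3 (-1.78 ± 0.22) and the apolipoprotein L gene Apol10a (-1.24 ± 0.16). Their adjusted p ranged from 0.000176 for Ces4a to 0.00164 for Apol10a. The pseudocount of 1 RPKM makes the changes of such low genes smaller. In the same order, their Con means were 13.7, 28.7, 7.25, 6.47 and 17.4 times the Con-FMT means, and 12.7 times for Nat8f6.

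**Figure D3:**
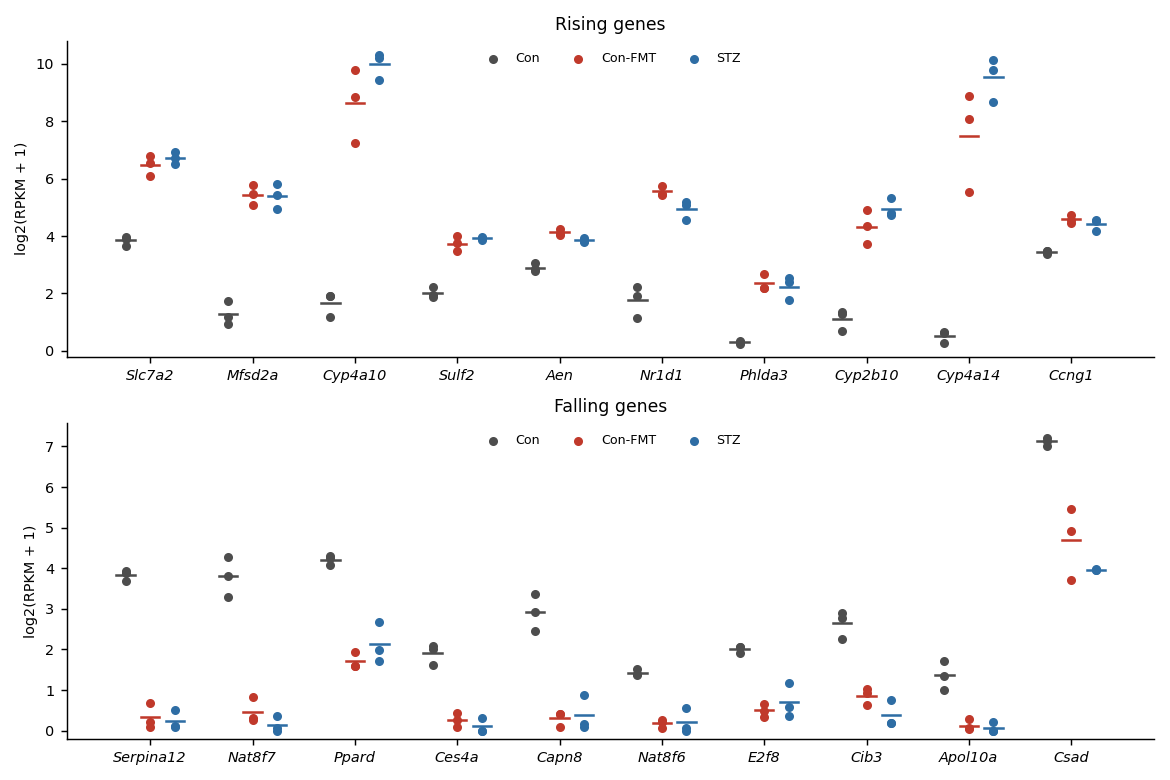
Dots give log2(RPKM + 1) of each mouse and short lines the group mean for the 10 rising (top) and 10 falling genes (bottom) in Con, Con-FMT and STZ. No Con-FMT mouse overlaps a Con mouse in these genes, which is part of how they were chosen, and the Con-FMT and STZ points overlap for Mfsd2a, at 43, 33.2 and 54 RPKM in Con-FMT and 29.6, 55.2 and 42.2 RPKM in STZ.

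The promoters of the first 2 rising and first 2 falling genes with an entry in RefSeq (GRCm38.p6) are shown so that the sequence around the starts of genes with small p can be read. Each window runs 5′ to 3′ from 250 bases before to 50 bases after the start, and capitals mark a match to any of the motifs searched. Mfsd2a lies on the minus strand at chr4:122961139-122961438, Sulf2 on the minus strand at chr2:166155634-166155933, Serpina12 on the minus strand at chr12:104044394-104044693 and Nat8f7 on the minus strand at chr6:85708512-85708811. The RefSeq start of Nat8f7 lies inside the span of 85706727 to 85713205 that GENCODE gives for the gene, so its window is not the sequence before the GENCODE start.
Mfsd2a: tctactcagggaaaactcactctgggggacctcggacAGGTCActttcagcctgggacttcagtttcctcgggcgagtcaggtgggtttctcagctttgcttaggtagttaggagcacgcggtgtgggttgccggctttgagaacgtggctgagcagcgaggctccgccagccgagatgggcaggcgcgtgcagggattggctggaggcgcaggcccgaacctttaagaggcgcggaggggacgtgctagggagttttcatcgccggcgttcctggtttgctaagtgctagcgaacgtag
Sulf2: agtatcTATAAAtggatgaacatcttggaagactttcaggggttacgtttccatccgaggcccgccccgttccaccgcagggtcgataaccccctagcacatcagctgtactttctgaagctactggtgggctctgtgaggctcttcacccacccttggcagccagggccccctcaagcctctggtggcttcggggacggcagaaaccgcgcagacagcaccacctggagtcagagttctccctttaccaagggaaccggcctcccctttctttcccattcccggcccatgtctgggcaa
Serpina12: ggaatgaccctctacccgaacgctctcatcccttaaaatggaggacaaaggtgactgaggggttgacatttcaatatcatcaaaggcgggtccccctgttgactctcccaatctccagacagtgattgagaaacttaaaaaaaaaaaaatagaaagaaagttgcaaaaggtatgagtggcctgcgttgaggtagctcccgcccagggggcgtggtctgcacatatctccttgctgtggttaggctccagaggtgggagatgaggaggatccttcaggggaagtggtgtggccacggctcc
Nat8f7: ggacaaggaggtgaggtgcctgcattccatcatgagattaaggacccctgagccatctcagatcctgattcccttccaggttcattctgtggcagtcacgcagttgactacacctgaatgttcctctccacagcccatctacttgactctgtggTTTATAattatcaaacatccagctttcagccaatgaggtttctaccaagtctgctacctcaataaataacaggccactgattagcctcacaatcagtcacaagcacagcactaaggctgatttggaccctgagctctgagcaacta

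The motifs were searched on both strands. They were the nuclear receptor core AGGTCA, the PPAR direct repeat (which contains that core), the E-box CACGTG, the STAT5 site TTCNNNGAA, the sterol element TCACNCCAC, the glucocorticoid element, the forkhead site GTAAACA and the TATA box TATAAA. Mfsd2a held the letters of a nuclear receptor core, with the first base at -213 from the start, and the Serpina12 window held no match. Sulf2 and Nat8f7 each held the letters of the TATA box, at -244 in Sulf2 and, on the other strand as TTTATA, at -96 in Nat8f7. The nuclear receptor core was in 12.9% of the 8143 members with a promoter entry, in 203 of 1500 called higher (13.5%) and in 38 of 160 called lower (23.8%), and in 16% of all promoters. The TATA box was in 7.17% of the members, 8.33% of those called higher and 14.4% of those called lower, and in 14.2% of all 27025 promoters. E-boxes were in 10.5% of the members, 11.7% of those called higher and 9.38% of those called lower, and in 7.24% of all promoters. The other 5 motifs were in 0.0444 to 8.42% of all promoters, and in 0.133 to 6.6% of those called higher and 0 to 8.12% of those called lower. These are letters in a window and not measured sites, and the shares were not tested.

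The members were then read by pathway, in 32 lists. The counts of these lists stand beside 18.6% of all genes called higher and 2.01% called lower with all libraries, 6.54 and 0.802% without Con mouse 3, and 4.86 and 3.89% with median-ratio scaling. Members that reached 1 RPKM in only 1 of the groups had to differ to be included, and they were counted in the lists. There were 1 to 4 of them in 10 of the 32 lists. Lepr, Ugt2b38, Mthfd2 and Cd4, described further on, were also of this kind. Other single libraries moved the list counts as well, by more than 1.5 times in 21 of 42 lists without Con mouse 3, 23 without Con-FMT mouse 1, 19 without Con mouse 1 and 15 without Con-FMT mouse 3. Over all genes, 540 (5.28%) passed with each library left out. By count, such members were most numerous for amino acid catabolism (17 of 43), Cyp2b, Cyp2c and Cyp3a genes (11 of 23), urea cycle and ammonia (7 of 12) and conjugation (7 of 37). Next were 6 of 31 growth hormone and male-biased genes and 6 of 19 clock genes. There were 5 of 14 for gluconeogenesis, 5 of 16 for p53 targets, 5 of 23 for bile acids and 5 of 26 for apolipoproteins. For oxidative phosphorylation and the proteasome, 1 of 74 and 1 of 31 genes did so.

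Of 14 gluconeogenesis genes tested, 9 were higher and 0 lower with all libraries (6 higher without Con mouse 3, 6 with median-ratio scaling), beside 18.6% of all genes called higher, with a median change of 0.70 beside 0.19 over all genes. Pck1, the gene of the rate-limiting enzyme of this pathway, was at 287, 342 and 302 RPKM in Con and 1690.1, 817 and 1386 RPKM in Con-FMT (log2 change 2.0 ± 0.29, adjusted p = 0.00247, and 0.0155 without Con mouse 3). All Con-FMT mice were above Con, with mouse 2 the nearest. The aminotransferase Got1 rose by 2.23 and Sds, which makes pyruvate from serine, by 2.02 on the log2 scale (adjusted p = 0.00104 and 0.00114). G6pc, the last step of glucose release, was at 156, 265 and 208 RPKM in Con and 347, 329 and 299.9 RPKM in Con-FMT and did not pass (log2 change 0.66 ± 0.29, adjusted p = 0.121).

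Among 15 insulin-regulated genes, 5 were higher and 1 lower (3 and 0 without Con mouse 3). Igfbp2 rose by 1.82 (adjusted p = 0.00714). Igfbp1, a secreted binder of insulin-like growth factors that insulin represses, was at 18.1, 24 and 21.8 RPKM in Con and 111, 49.1 and 52 RPKM in Con-FMT without overlap, and missed the threshold (log2 change 1.59 ± 0.54, adjusted p = 0.0575). Irs2, an adaptor of the insulin receptor, changed by 0.57 ± 0.20 (adjusted p = 0.0657), and Srebf1, the lipogenic regulator, by 0.07 ± 0.35 (adjusted p = 0.905).

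Of 20 genes for glucose uptake, glycolysis and fructose use, 5 were higher and 1 was lower (1 and 0 without Con mouse 3, 1 and 1 with median-ratio scaling). The fructose transporter Slc2a5 passed in each of these fits and rose from 1.92, 2.28 and 2.09 to 7.93, 5.17 and 5.6 RPKM (log2 change 1.21 ± 0.22, adjusted p = 0.00654). Of 15 glycogen genes, 2 were higher and 1 lower, beside 18.6 and 2.01% of all genes. The counts were 1 and 1 without Con mouse 3, and also with median-ratio scaling. The list median was 0.20, close to the 0.19 of all genes. Ugp2, which makes UDP-glucose, rose by 1.44 (adjusted p = 0.00104), Pgm2 rose by 0.60 (adjusted p = 0.0307, and 0.0934 without Con mouse 3), and Ppp1r3b, which targets a phosphatase to glycogen, was -1.25 (adjusted p = 0.0072).

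Of 43 genes of amino acid catabolism, 31 were higher and 1 lower, with a median of 0.68 (20 and 1 without Con mouse 3, 19 and 1 with median-ratio scaling). Oat, ornithine aminotransferase, was at 72.8, 81.6 and 79.9 RPKM in Con and 1296, 408 and 846 RPKM in Con-FMT, and its mean was 10.9 times that of Con (log2 change 3.28 ± 0.32, adjusted p = 0.00028, and 0.00273 without Con mouse 3). Con-FMT mouse 1 was the highest and mouse 2 the lowest, well above Con. The 1 lower gene was Csad. Gpt, alanine aminotransferase, was at 76.5, 112 and 100 RPKM in Con and 203, 165 and 162 RPKM in Con-FMT (log2 change 0.88 ± 0.18, adjusted p = 0.00959).

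Of 12 urea cycle and ammonia genes, 9 were higher and 0 lower, with a median change of 1.04 (7 without Con mouse 3, 8 with median-ratio scaling). Cps1, the entry enzyme of the cycle, was at 298, 449 and 375 RPKM in Con and 969.5, 679.8 and 795 RPKM in Con-FMT (log2 change 1.13 ± 0.17, adjusted p = 0.00333). The groups were separate, with Con-FMT mouse 1 the highest. Slc25a15, the mitochondrial ornithine carrier, rose by 1.15 (adjusted p = 0.00205). Otc, Nags and Glul, named after their values were seen, did not pass, with changes of 0.31, 0.28 and 0.29.

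In the list of mitochondrial fatty acid oxidation and ketogenesis, 19 of 23 genes were higher and 0 lower (median 0.66). The count became 6 without Con mouse 3, where the median was 0.70, and 13 with median-ratio scaling. Cpt1a, which controls entry of fatty acids into mitochondria, was at 39.9, 42.9 and 40.5 RPKM in Con and 147, 72.2 and 98 RPKM in Con-FMT (log2 change 1.28 ± 0.23, adjusted p = 0.00711, and 0.0304 without Con mouse 3). Con-FMT mouse 2 was again the nearest to Con. Peroxisomal oxidation had 12 of 22 genes higher and 0 lower, led by Slc27a2, a fatty acid transporter and acyl-CoA synthetase (log2 change 0.97 ± 0.17, adjusted p = 0.00578), but only 3 without Con mouse 3 and 2 with median-ratio scaling. Among 74 oxidative phosphorylation subunits, 23 were higher (median 0.45), 3 without Con mouse 3 and 5 with median-ratio scaling.

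In the list of Cyp4a hydroxylases and acyl-CoA thioesterases, which hold known targets of PPAR alpha, 10 of 18 genes were higher and 0 lower with a median of 1.03 (5 without Con mouse 3). Acot12, a thioesterase, rose by 1.11 (adjusted p = 0.00144). Of 21 genes for lipid droplets and fatty acid uptake, 8 were higher and 0 lower (4 without Con mouse 3, 4 with median-ratio scaling), with Mfsd2a first. Cd36, the fatty acid translocase, rose from 2.45, 2.22 and 1.85 to 13.3, 9.1 and 11.9 RPKM (log2 change 1.96 ± 0.26, adjusted p = 0.00176).

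Of 21 genes for fatty acid synthesis, elongation and desaturation, 1 was higher and 5 were lower (median -0.38), against 0 and 2 without Con mouse 3 and 0 and 8 with median-ratio scaling. The lower genes were Acacb, Elovl3, Scd1, Gpam and Fasn, and the higher one was Elovl6, which did not pass after scaling (adjusted p = 0.299). Elovl3, an elongase of very long fatty acids, was at 209, 228 and 239 RPKM in Con and 0.12, 5.85 and 2.91 RPKM in Con-FMT, a log2 change of -6.19 ± 0.93 (adjusted p = 0.00279, and 0.0177 without Con mouse 3). Con-FMT mouse 1 was close to 0 and the other Con-FMT mice were far below Con. Acacb, which makes the malonyl-CoA that inhibits Cpt1a, fell from 9.94, 16.8 and 13.1 to 5.56, 5.92 and 5.4 RPKM (log2 change -1.08 ± 0.15, adjusted p = 0.00247). Scd1, the main hepatic desaturase, was at 676, 815 and 740 RPKM in Con and 25.6, 406 and 86 RPKM in Con-FMT, so that mouse 2 kept the highest level (log2 change -2.92 ± 0.83, adjusted p = 0.0317, and 0.083 without Con mouse 3). Of 24 genes of cholesterol synthesis, only Sc5d passed with all libraries (-0.69, adjusted p = 0.0251), and 0 passed without Con mouse 3.

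Genes of drug metabolism had the highest median of the 32 pathway lists, 1.49 over 23 Cyp2b, Cyp2c and Cyp3a genes and their receptors. Of these, 13 were higher and 1 lower, and 11 and 1 without Con mouse 3 as well as with median-ratio scaling. Cyp2c39 was at 16.6, 33.9 and 24.7 RPKM in Con and 386, 136 and 272 RPKM in Con-FMT (log2 change 3.28 ± 0.42, adjusted p = 0.00162), and Cyp2c38 rose by 3.21 (adjusted p = 0.00129). The 1 lower gene was Cyp2c70, which makes muricholic acids, at 618, 590.5 and 596 RPKM in Con and 166, 333 and 278 RPKM in Con-FMT (log2 change -1.27 ± 0.23, adjusted p = 0.00682). Genes of these clusters are close copies, and single values within them are uncertain.

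Of 37 conjugation genes, 12 were higher and 2 lower (7 and 2 without Con mouse 3). Gsta2, a glutathione transferase, rose from 16.2, 45.3 and 29.2 to 288, 142 and 211 RPKM (log2 change 2.84 ± 0.33, adjusted p = 0.00104), and the lower genes were Ugt2b38 (-2.37) and Gstp1 (-1.41). Of 23 bile acid genes, 9 were higher and 1, Cyp7b1, was lower (8 and 0 without Con mouse 3). Abcb4, which moves phosphatidylcholine into bile, rose by 1.26 (adjusted p = 0.00173), Slco1a4, an anion uptake carrier, by 3.18 (adjusted p = 0.00204) and Abcc3, a basolateral exporter, by 1.37 (adjusted p = 0.00403). Among 26 apolipoprotein and lipoprotein genes, 10 were higher and 0 lower (6 without Con mouse 3, and 6 higher and 1 lower with median-ratio scaling). Abcg5, a sterol exporter, rose from 17.7, 14.7 and 16.6 to 42, 52.7 and 44.8 RPKM (adjusted p = 0.00173).

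**Figure D4:**
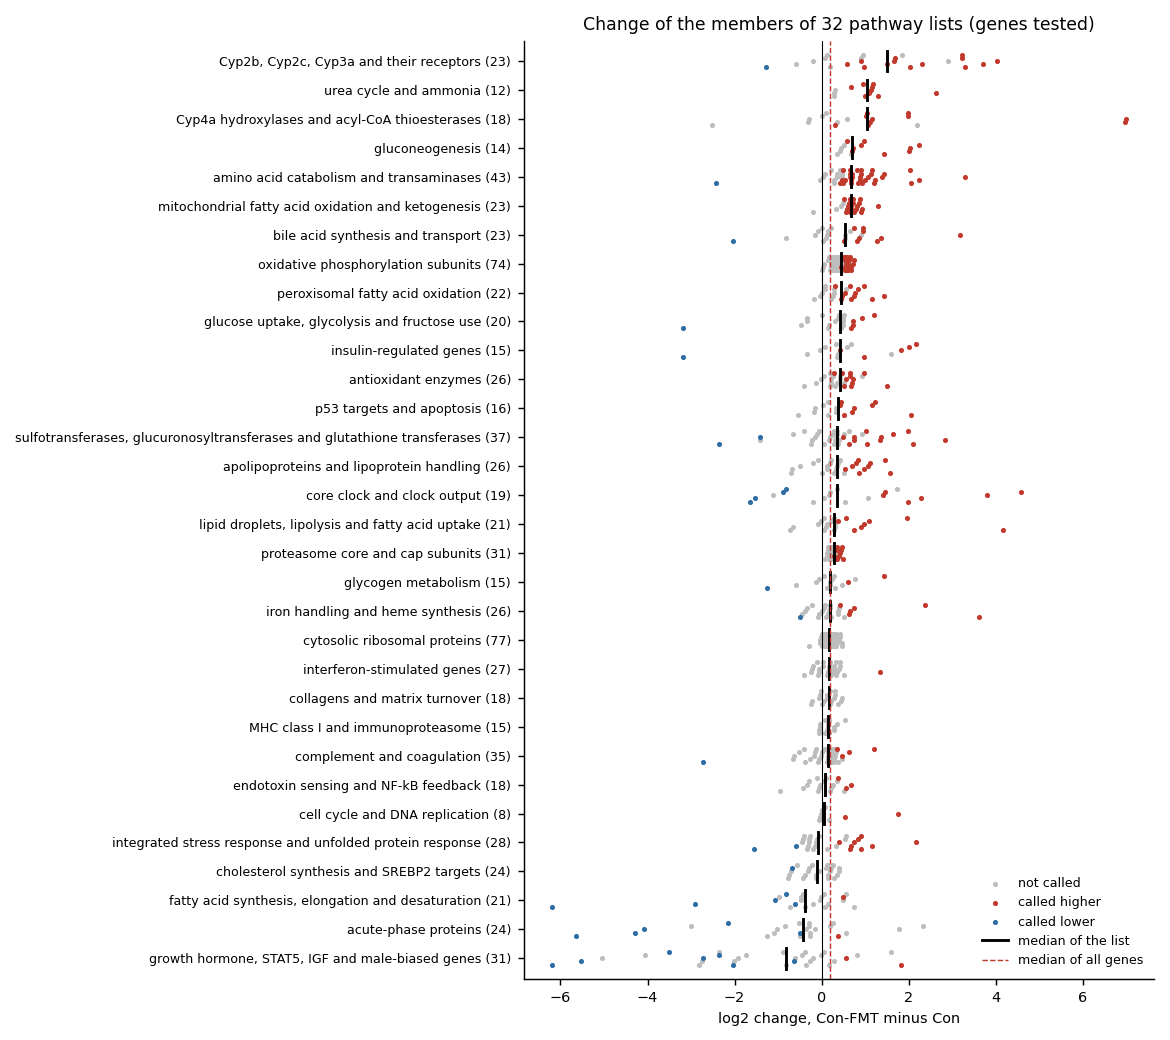
Dots are the members of 32 pathway lists (number of genes tested in brackets) at their log2 change, Con-FMT minus Con, red where called higher and blue where called lower with all libraries. Black marks are list medians and the dashed line is the median of all genes at 0.19. The medians run from -0.82 for growth hormone and male-biased genes to 1.49 for the Cyp2b, Cyp2c and Cyp3a genes.

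Growth hormone, IGF and male-biased genes had the lowest median, -0.82 over 31 genes, with 2 higher and 7 lower (1 and 5 without Con mouse 3, 1 and 8 with median-ratio scaling). The list held Mup genes, which are counted again in the next paragraph. It summed to 144000 to 206000 RPKM in Con and 19200 to 103000 RPKM in Con-FMT. In STZ against Con, which shares the Con mice, 5 of these 31 genes were higher and 20 lower (33.2 and 5.76% of all genes), with a median of -2.53. Hsd3b5, a male-specific steroid dehydrogenase named after its values were seen, was at 163, 257 and 216 RPKM in Con and 0.37, 21.3 and 2.12 RPKM in Con-FMT (log2 change -5.52 ± 1.16, adjusted p = 0.0111). Con-FMT mouse 2 held most of the remaining expression. The other lower genes were Serpina12, Elovl3, Ugt2b38, C6, Stat5a and Cyp7b1, and the higher ones were Igfbp2 and Igfbp4, the last with an adjusted p of 0.156 after scaling.

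The Mup genes belong to the same programme and varied most among the Con-FMT mice. Of 20 Mup genes among the members, 17 had all Con-FMT mice below all Con mice (5.28% of all genes did), yet 1, Mup18, passed in Con-FMT against Con (8 at an unadjusted p under 0.05), while 20 passed as lower in STZ against Con. Mup1, the most abundant gene of the comparison, was at 68877, 60466 and 55703 RPKM in Con, 3655, 47918 and 35476 RPKM in Con-FMT and 45.8, 34.4 and 32146 RPKM in STZ. The wide spread within Con-FMT and STZ gave a log2 change of -1.74 ± 2.05 (adjusted p = 0.557). Con-FMT mouse 1 was the lowest for all 20 genes and mouse 2 the highest for 14. The 5 genes with the widest range within Con-FMT among those with a mean of at least 5 RPKM were all Mup genes, led by Mup15 at 1.58, 687 and 256 RPKM, against 4369, 2793 and 2195 RPKM in Con. The Mup genes are near-identical copies, so their single values are uncertain.

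Of 19 clock genes, 6 were higher and 4 lower (4 and 2 without Con mouse 3, 4 and 4 with median-ratio scaling). Nr1d1, the repressor REV-ERB alpha, was at 1.22, 3.68 and 2.72 RPKM in Con and 53.2, 43.4 and 42.5 RPKM in Con-FMT, its paralog Nr1d2 rose by 2.27 (adjusted p = 0.00042), and Dbp, an output transcription factor, rose from 0.66, 0.58 and 0.68 to 53.9, 37.9 and 27.3 RPKM (log2 change 4.58 ± 0.64, adjusted p = 0.0021). Each Con-FMT mouse was above each Con mouse for these genes. Of the 19, 4 reached 1 RPKM in all mice of 1 group and none of the other, among them Dbp and Per3 through Con-FMT and Npas2 through Con, and had to differ to be included. Tef, Per3 and Per1 were the other higher genes, and Cry1, Npas2 and Nfil3 were among the 4 lower ones, all named after their values were seen. Npas2, an activator of the clock, fell from 2.9, 3.48 and 2.95 to 0.45, 0.35 and 0.15 RPKM (log2 change -1.65 ± 0.28, adjusted p = 0.00481) and Cry1, a repressor, from 8.45, 14 and 10.5 to 3.76, 2.72 and 2.81 RPKM (log2 change -1.53 ± 0.23, adjusted p = 0.00258). The labels give no hour of sampling, and the part of sampling time in these values was not tested.

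**Figure D5:**
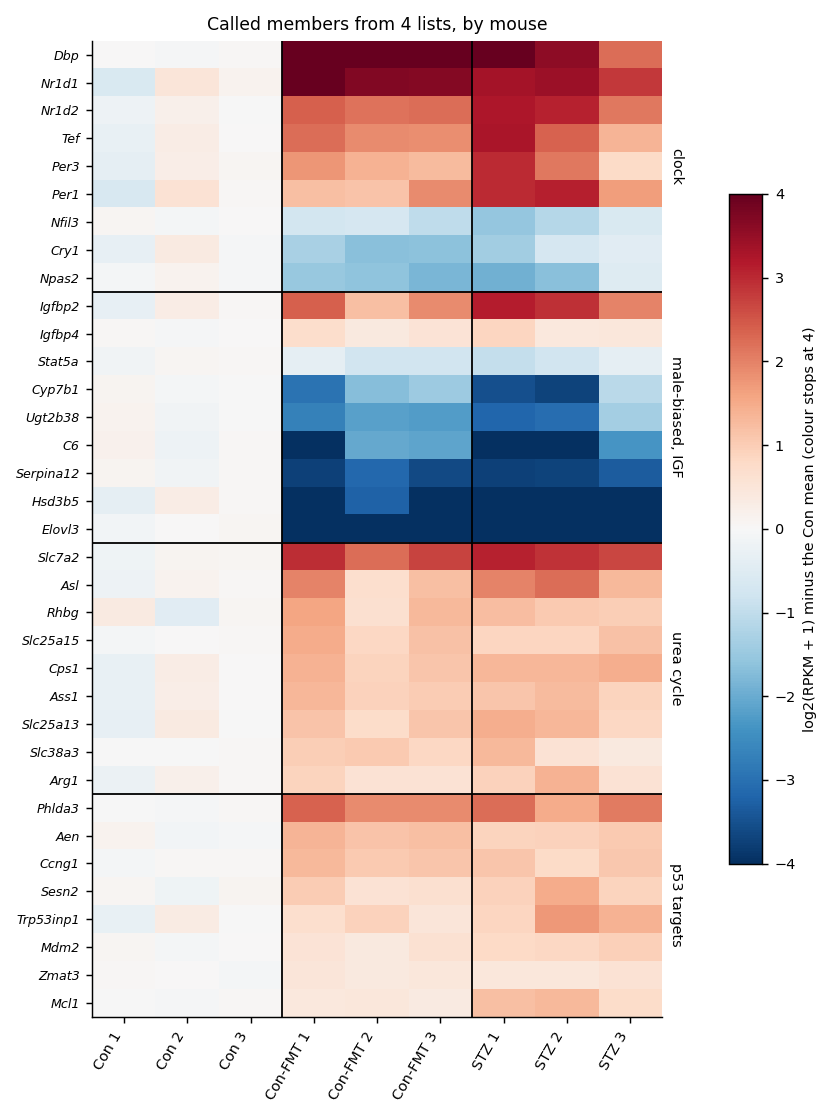
Colours give log2(RPKM + 1) of each mouse minus the Con mean for called members of the clock, growth hormone and male-biased, urea cycle and p53 lists in Con, Con-FMT and STZ, and stop at 4 in either direction. Dbp and Nr1d1 are the strongest red rows of the clock block, Elovl3 and Hsd3b5 are deep blue in the male-biased block, and Con-FMT mouse 2 is the palest Con-FMT column for C6 and Asl.

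Of 16 p53 targets and apoptosis genes, 8 were higher and 0 lower (6 without Con mouse 3, 5 with median-ratio scaling), with a median of 0.37. Aen, Phlda3 and Ccng1 led the list. Bax, a pore-forming apoptosis protein, was at 28, 24.5 and 25.1 RPKM in Con and 38.5, 29.3 and 30.8 RPKM in Con-FMT and did not pass (log2 change 0.33 ± 0.13, adjusted p = 0.102), nor did its antagonist Bcl2l1 (0.15 ± 0.15, adjusted p = 0.481), whose change was -0.06 with median-ratio scaling. Pcna, the DNA clamp, and Ccnd1, cyclin D1, were the 2 higher of 8 cell cycle genes tested (26 listed), by 0.53 and 1.76 (adjusted p = 0.0114 and 0.0126). Over all genes, 18.6% were called higher, and the list median was 0.04 beside 0.19 over all genes. Pcna did not pass with median-ratio scaling (adjusted p = 0.0624), and Ccnd1 did not pass without Con-FMT mouse 1 (adjusted p = 0.0526).

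Among 26 antioxidant genes, 11 were higher and 0 lower (4 without Con mouse 3, and 4 higher and 1 lower with median-ratio scaling). Nfe2l2, which encodes the antioxidant regulator NRF2, rose by 0.72 (adjusted p = 0.00338), and its target Nqo1 rose from 0.94, 1.71 and 1.48 to 10.4, 3.91 and 4.22 RPKM (log2 change 1.5 ± 0.30, adjusted p = 0.00959). Among the superoxide dismutases, the secreted Sod3 changed by 0.96 ± 0.27 (adjusted p = 0.0319, and 0.0713 without Con mouse 3), Sod1 by 0.19 ± 0.16 (adjusted p = 0.408) and Sod2 by 0.19 ± 0.12 (adjusted p = 0.279). Catalase (Cat) changed by 0.22 ± 0.20 (adjusted p = 0.433). The last 3 did not pass, and their changes were -0.03, -0.04 and -0.01 with median-ratio scaling.

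Of 28 genes of the integrated stress and unfolded protein responses, 9 were higher and 2 lower (6 and 0 without Con mouse 3), with a median of -0.09. Ppp1r15a, which restores translation after stress, rose from 4.12, 4.07 and 4.46 to 6.66, 6.92 and 8.43 RPKM (log2 change 0.67 ± 0.10, adjusted p = 0.00258), and the lower genes were Mthfd2 (-0.60) and the chaperone partner Sdf2l1 (-1.55), both named after their values were seen. Of 26 iron and heme genes, 6 were higher and 1 lower (3 and 0 without Con mouse 3), beside 18.6% of all genes called higher and 2.01% called lower. The list median was 0.18, close to the 0.19 of all genes. Alas1, the rate-limiting enzyme of hepatic heme synthesis, rose from 24.9, 82.1 and 50.6 to 232, 168 and 387 RPKM (log2 change 2.37 ± 0.41, adjusted p = 0.00601), and Fech, the last enzyme of heme synthesis, rose by 0.64 (adjusted p = 0.00391).

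Calls of acute-phase genes depended on which Con mice were used. Of 24 genes, 1 was higher and 5 lower with all libraries, and 0 and 1 without Con mouse 3. The list median was -0.43 with all libraries and -0.38 without Con mouse 3. Over all genes, the share called lower also fell, from 2.01 to 0.802%. Saa2, a serum amyloid A gene, was at 7018, 300 and 3826 RPKM in Con and 13.5, 106 and 40.6 RPKM in Con-FMT (log2 change -5.64 ± 1.23, adjusted p = 0.0126, and 0.0508 without Con mouse 3), and Saa3 was at 344, 22.6 and 195 RPKM in Con and 3.14, 10.3 and 6.06 RPKM in Con-FMT. Con mouse 1 was far above Con mouse 2 in both genes, with Con mouse 3 in between. Complement and coagulation had 4 of 35 genes higher and 1 lower (2 and 1 without Con mouse 3), no larger a share of higher genes than the 18.6% of all genes. The first was Mbl2, the mannose-binding lectin, which rose from 350.1, 353 and 358 to 937, 753 and 740.3 RPKM (log2 change 1.19 ± 0.14, adjusted p = 0.000923), while C6, a component of the membrane attack complex, changed by -2.73 on the log2 scale (adjusted p = 0.0113).

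Of 15 MHC class I genes, 18 collagen and matrix genes and 77 cytosolic ribosomal protein genes, 0 passed in limma with all libraries, and 2, 1 and 4 had an unadjusted p under 0.05. Of 27 interferon-stimulated genes, 1 passed, Usp18, an inhibitor of interferon signalling that went from 2.17, 1.78 and 2.71 to 6.98, 6.94 and 7.38 RPKM (log2 change 1.34 ± 0.20, adjusted p = 0.00258). Of 18 endotoxin sensing genes, 3 were higher with all libraries (Nfkbia, Nfkbiz and Ripk2), close to the 18.6% of all genes, and 0 higher and 1 lower (Ly96, a partner of the endotoxin receptor) without Con mouse 3. Among 31 proteasome subunits, 10 were higher, 3 without Con mouse 3 and 0 with median-ratio scaling.

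Marker genes of cell types were compared as well. Hepatocyte markers were present at 50700 to 65800 summed RPKM in Con and 43100 to 55400 in Con-FMT, with a list median of -0.28 (-0.51 with median-ratio scaling). Of the 9 markers, 2 were called higher, Cps1 and Hnf4a, and with median-ratio scaling 1 was higher and 1 lower (Ttr), while Hnf4a no longer passed (adjusted p = 0.062). Apoa1 and Trf had all Con-FMT mice below all Con mice and did not pass. None of the 13 Kupffer cell, 12 endothelial or 10 stellate cell markers tested passed in limma (0, 3 and 1 at an unadjusted p under 0.05), with summed RPKM of 148 to 222 against 175 to 262, 80.3 to 94.3 against 92.3 to 122 and 82.8 to 93.6 against 79.3 to 160. In such bulk tissue, fewer cells of a type and less RNA per cell cannot be told apart. Sox9 (-0.65, adjusted p = 0.0253, and 0.0681 without Con mouse 3) was the 1 of 4 cholangiocyte markers that passed. Its levels were low, at 2.39, 1.95 and 2.08 RPKM in Con and 1.08, 1.4 and 0.6 RPKM in Con-FMT. Cd4 (-0.77) was the only T cell marker tested, and Cela1 (-2.00) the only pancreatic marker tested. Cela1 alone was at 30.8, 40.5 and 36.3 RPKM in Con, where all listed pancreatic markers together summed to 32.4 to 41.2 RPKM. Erythroid genes summed to 3120, 1580 and 2510 RPKM in Con and 9980, 3650 and 4400 RPKM in Con-FMT, so that the groups did not overlap, and 0 of 6 tested passed (2 at an unadjusted p under 0.05). Of 3 neutrophil and 4 dendritic cell markers, 0 passed (1 and 0 at an unadjusted p under 0.05), and neutrophil markers summed to 51.1 to 1060 RPKM in Con and 31.1 to 58.2 RPKM in Con-FMT. Most of this sum was Lcn2, at 1043, 47.5 and 612 RPKM in Con and 27.2, 48.7 and 41.2 RPKM in Con-FMT. As for Saa2, Con mouse 1 was far above Con mouse 2, with Con mouse 3 in between. The part of blood content or of the Mup genes in the values above was not tested.

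Among the 2102 called genes, with values as deposited, Con-FMT mouse 1 was the farthest from the Con mean in 75.4% and mouse 2 the nearest in 62.8%. These shares were 78.2 and 64.2% in genes called higher, and 49.8 and 49.8% in genes called lower. The median distance of the called genes from Con in the direction of change was 0.63, 0.41 and 0.48 on the log2 scale for mice 1, 2 and 3. The median SD per gene was 0.14 in Con-FMT, 0.112 in Con, which includes Con mouse 3, 0.19 in STZ and 0.107 in A10-FMT. Calls were more frequent among abundant genes, with 7.58% called higher in the lowest of 4 equal bins of mean RPKM and 28.6% in the highest, and 2.85 and 2.03% called lower. Median transcript length was 3241 bases over all members, 3038 in genes called higher and 3026 in genes called lower, with a median GC content of 49.6, 49.3 and 50.7%.

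Con-FMT was also set beside STZ, to see whether transplanted livers differed from untransplanted diabetic ones. In this contrast 1 of 10224 genes (0.00978%) passed as lower with all libraries (2050 at an unadjusted p under 0.05, 20.1%), and 64 (0.626%) passed with median-ratio scaling, 17 higher (0.166%) and 47 lower (0.46%). The gene was Id1, an inhibitor of differentiation induced by BMP signalling, at 3.77, 4.06 and 3.9 RPKM in Con, 5.54, 3.92 and 3.07 RPKM in Con-FMT and 17.2, 14 and 11.2 RPKM in STZ. Con-FMT overlapped Con and lay below every STZ mouse (log2 change against STZ -1.56 ± 0.18, adjusted p = 0.0237), and against Con its change was 0.05 ± 0.18 (adjusted p = 0.858). This count rested on STZ mouse 3. Without it 1570 genes passed, 591 higher and 979 lower in Con-FMT, while 16 passed without Con-FMT mouse 1 and 0 without Con-FMT mouse 2, Con-FMT mouse 3, STZ mouse 1 or STZ mouse 2 (1557, 1526, 1879 and 1262 at an unadjusted p under 0.05).

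For members with large changes, values against both groups stand side by side, and both comparisons use the Con-FMT mice. Lepr, the leptin receptor, was at 0.14, 0.14 and 0.17 RPKM in Con, 9.29, 1.14 and 5.15 RPKM in Con-FMT and 46.3, 42.1 and 21.7 RPKM in STZ. It was higher in Con-FMT than in Con (2.16 ± 0.46, adjusted p = 0.0117) and its change against STZ was -2.81 ± 0.46 (adjusted p = 0.0533). Igfbp1 was at 334, 976 and 190.3 RPKM in STZ, a change of -2.57 ± 0.54 in Con-FMT against STZ (adjusted p = 0.0741), and all Con-FMT mice lay between the Con and the STZ mice. Slc7a2, Mfsd2a and Serpina12 differed from STZ by -0.25 ± 0.18, 0.05 ± 0.29 and 0.09 ± 0.23, none of which passed. In A10-FMT against Con-FMT, 0 genes passed in limma, with 292 at an unadjusted p under 0.05.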

How the data were processed

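Liver RNA-seq values of Con, Con-FMT, STZ and A10-FMT (3 libraries each) were taken from 1 table of 19057 genes and 18 columns, all of which matched a sample by name. RPKM were deposited by the authors. The methods name SOAPaligner, and the submitters' processing notes name Bowtie 0.12.2 and mm10. Since RPKM were deposited, no count test was run. Of the symbols, 26 looked like dates and 3 stood on more than 1 row.

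A pseudocount of 1 RPKM was added before taking log2, and 1 mean per group was fitted in limma 3.58.1 (R 4.3.3) with a trend in eBayes. Benjamini-Hochberg adjustment ran over 10224 genes, with 2-sided p, and 0.05 was the threshold. Changes are on the log2(RPKM + 1) scale, which understates low genes. The 4 groups share 1 estimate of the spread. The fit was tested on simulated data first.

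Members, 42 gene lists and the rule for named genes were chosen with earlier results of these data known. Genes were named when they were among the 10 rising or 10 falling genes with the smallest p (called, log2 change of at least 1, no overlap), among the 3 called list members with the smallest p or the most abundant member of a list without calls, were of interest to the study or from earlier results, varied most within Con-FMT or were most abundant. Other genes, such as those that spell out small counts, were named after their values were seen, and some genes are not reported here. Lists were described by counts and medians, with no test. Mouse numbers are shared between groups, but no pairing is described, so no block was used. Same-numbered Con-FMT and Con mice did not deviate together (r = -0.149, -0.0604 and 0.0104). For Con-FMT and STZ mice, r was 0.502, -0.244 and 0.242 at the same number and -0.545 to 0.429 at different numbers. Alternatives were 4 other scalings, the pseudocount, the filter, the groups in the fit, the trend, a replicate block, leaving out each library and the study's limits. Positions and lengths came from GENCODE M21 (GRCm38), promoters from RefSeq.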

Additional observations from a re-analysis of the deposited data

How the results depend on the processing

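Changing the filter, pseudocount, trend or groups in the fit left the calls in Con-FMT against Con between 1453 and 2130. Median centring gave 904, quantile normalization 904, median-ratio scaling 895, scaling to the sum without Mup genes 1085 and the study's limits 22. Leaving out 1 mouse gave 639 to 2079 with values as deposited. With median-ratio scaling it gave 355, 489 and 247 without Con mouse 1, 2 or 3 and 319, 838 and 367 without Con-FMT mouse 1, 2 or 3. For Con-FMT against STZ, with 1 call, the counts were 13 with 1 RPKM in every library, 14 with all 6 groups, 75 with median centring, 64 with median-ratio scaling, 17 with no filter, 57 with quantile normalization, 135 with scaling to the sum without Mup genes and 0 with only the 2 groups (1260 at an unadjusted p under 0.05) or at the study's limits. It was 0 to 1570 with 1 mouse left out. The cause was not tested. The scaling without Mup genes and the leave-outs under median-ratio scaling were chosen after seeing the data.

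Same-numbered mice were not shown to be paired. A fit with the replicate block gave 1474 calls in Con-FMT against Con and 1 in Con-FMT against STZ.

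Among 108 named genes, the direction turned in 6 that had not passed. Calls were lost in 12 without Con mouse 3, 17 without Con-FMT mouse 1, 15 without Con mouse 1, 12 with median-ratio scaling and 1 with the block. Bcl2l1 went from 0.15 to -0.06 with median centring, -0.06 with median-ratio scaling, -0.10 with quantile normalization, -0.00 with scaling without Mup genes. Cat went from 0.22 to -0.01 with median-ratio scaling. Id1 went from 0.05 to -0.16 with median centring, -0.13 with median-ratio scaling, -0.11 with quantile normalization, -0.08 with scaling without Mup genes, -0.13 to 0.21 with 1 mouse left out (lowest without Con-FMT mouse 1). Sod1 went from 0.19 to -0.02 with median centring, -0.03 with median-ratio scaling. Sod2 went from 0.19 to -0.02 with median centring, -0.04 with median-ratio scaling, -0.06 with quantile normalization. Srebf1 went from 0.07 to -0.14 with median centring, -0.15 with median-ratio scaling, -0.17 with quantile normalization, -0.09 with scaling without Mup genes, -0.35 to 0.29 with 1 mouse left out (below 0 without Con mouse 1 and without Con-FMT mouse 2).

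Values near 1 RPKM rest on few reads, and each group holds 3 libraries, of which Con mouse 3 lies between the others.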
